A study of Mus musculus with 4 samples.

Results

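Spermatogonial stem cells lie on the wall of the seminiferous tubule and depend on signals from the somatic cells around them. The 10 genes described here encode signals of that niche, germ-cell receptors for them, and factors inside spermatogonia. They are Gdnf, Gfra1, Ret, Etv5, Bcl6b, Id4, Zbtb16, Kitl, Kit and Csf1. The genes were chosen by name, and all 10 had a row among the 44509 named symbols of the expression table and passed the filter on low values. Gfra1 passed it only through its busulfan libraries, so its place on the lower side is not independent of the filter. Levels were measured by RNA sequencing of mouse testis in 4 libraries. In the 2 libraries called busulfan 1 and 2 the mice had oligozoospermia induced by busulfan, an alkylating agent toxic to proliferating germ cells. In the 2 libraries called Cus-1 1 and 2 such mice had been treated with Cus-1, a resin glycoside from cuscutae. All 4 libraries therefore come from busulfan-treated mice. The labels give no strain, age, dose, time, untreated control or sorting of cells, and do not say whether the libraries of a group are separate animals, so p-values measure the spread between these libraries. The protocol describes testis tissue taken per group, without saying whether animals were pooled. Sample titles start with BPA in the busulfan group and with CUS2 in the other, and the group names used here rest on the source label.

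In the testis GDNF comes from Sertoli and peritubular cells and binds GFRA1, which signals through the kinase RET in undifferentiated spermatogonia. This signal sustains self-renewal and keeps factors such as ETV5 and BCL6B expressed. KIT ligand, also made by Sertoli cells, acts later, on the KIT receptor of differentiating spermatogonia. CSF1 from Leydig and peritubular cells supports testicular macrophages and has been linked to stem cell renewal. FGF2 acts beside GDNF through FGF receptors.

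Of the 10 genes, 6 were lower in both treated libraries than in either library of the busulfan group, 1 was higher in both, and 3 overlapped between the groups. Kit and Zbtb16 had the largest gaps relative to their error, Gdnf, Csf1, Etv5 and Gfra1 were also lower in both, and Id4 was the gene that was higher, a side that turned for Csf1, Etv5 and Gfra1 when the libraries were scaled to Sertoli cell genes. Among all 19837 tested genes 31.7% were lower in both treated libraries and 36.6% higher in both, so 68.4% of all genes did not overlap between the groups. No gene passed the limma adjusted p threshold of 0.05, which is 0% of all genes, and the smallest adjusted p of any gene was 0.0676. At an unadjusted limma p under 0.05, 2 of the 10 genes were lower and 0 higher, against 9.96% and 18.0% of all genes. The median log2 fold change, Cus-1 minus busulfan on log2(FPKM + 1), was -0.31 for the 10 genes and 0.04 for all genes. FPKM is fragments per kilobase of gene and per 1e+06 mapped fragments, so levels of different genes can be set side by side.

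The libraries differed in their cell type markers, and in the spermatocyte and Sertoli cell lists busulfan 1 stood farthest out. The median log2(FPKM + 1) level of 15 spermatocyte genes was 4.79 in busulfan 1, 5.59 in busulfan 2, 6.21 in Cus-1 1 and 6.20 in Cus-1 2. For 22 Sertoli cell genes these medians were 6.61, 6.22, 5.78 and 5.82, and for each of the 22 both Cus-1 libraries lay lower. For the 12 Leydig cell genes Cus-1 1 stood farthest out, with medians of 8.41, 8.75, 7.56 and 8.50. In whole tissue, fewer cells of a type and less RNA per cell cannot be told apart. Markers of Sertoli, Leydig and germ cells were all present, so the tissue matches its label. The part of these shifts in the results below was not tested.

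**Figure D1:**
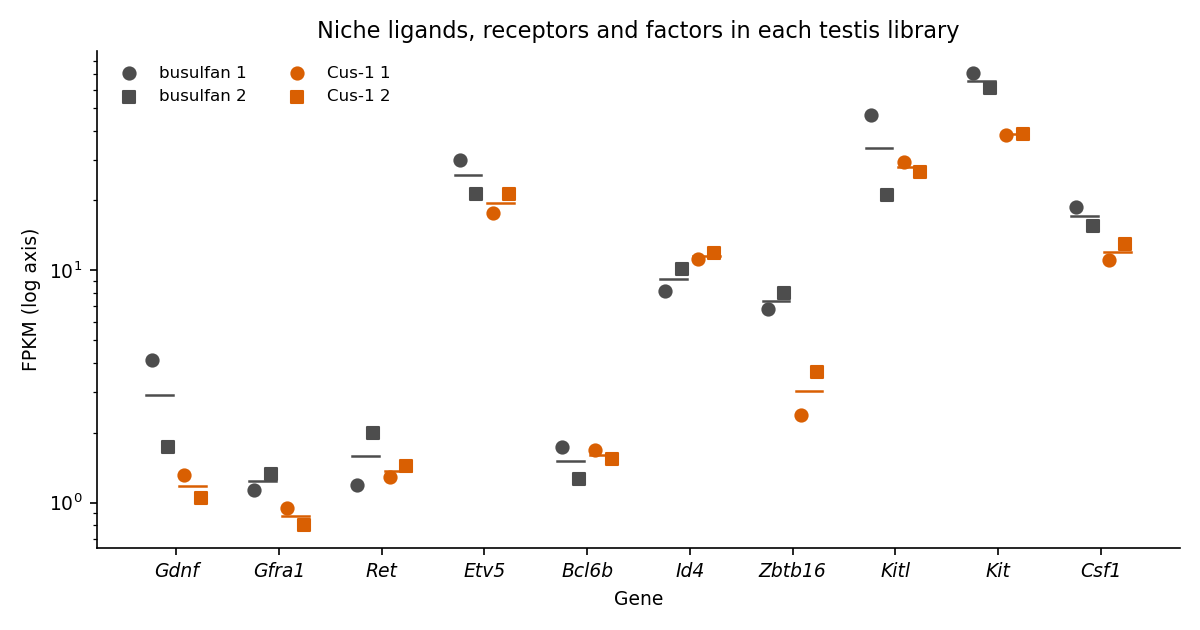
FPKM of the 10 niche genes (log axis) in each library, busulfan in grey and Cus-1 in orange, with the group mean as a line. Kit and Zbtb16 lie lower in both treated libraries, Id4 lies slightly higher, and Kitl and Ret overlap between the groups.

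Levels spanned a wide range, from the KIT pair at the top to the GDNF receptor complex at the bottom. With busulfan the order was Kit at 65.6 ± 6.94 FPKM, Kitl at 33.8 ± 18.0, Etv5 at 25.6 ± 6.04, Csf1 at 17.1 ± 2.20, Id4 at 9.18 ± 1.40, Zbtb16 at 7.42 ± 0.820 and Gdnf at 2.92 ± 1.67 (SD, n = 2). Ret at 1.59 ± 0.566, Bcl6b at 1.505 ± 0.332 and Gfra1 at 1.24 ± 0.134 followed. Among neighbours in this order, the libraries of Kitl and Etv5, of Gdnf and Ret, and of Ret, Bcl6b and Gfra1 overlapped. With Cus-1, Kit stayed first at 38.5 ± 0.212 FPKM and Gfra1 last at 0.875 ± 0.106, while Gdnf, at 1.18 ± 0.184, stood below Bcl6b, at 1.61 ± 0.0990, and Ret, at 1.36 ± 0.106, its libraries overlapping those of Ret. Csf1, at 12.0 ± 1.39, and Id4, at 11.5 ± 0.410, overlapped in the Cus-1 group. The rare genes rest on few reads. At an estimated depth of 12.2 to 13.8 M (1e+06) fragments, Gfra1 was covered by about 45 to 82 fragments per library and Bcl6b by about 57 to 78, taking their longest coding transcript, against 2472 to 4562 for Kit. These depths were inferred from the spacing of low values and cover counting error only.

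Gdnf, the ligand at the head of the self-renewal pathway (chromosome 15, 7810846 to 7837575, mm10), was at 4.10 FPKM in busulfan 1, 1.74 in busulfan 2, 1.31 in Cus-1 1 and 1.05 in Cus-1 2. Both Cus-1 libraries were below both busulfan libraries, and busulfan 1 stood well above the rest. The log2 fold change was -0.78 (SE 0.37, limma adjusted p = 0.217). Without busulfan 1 it was -0.33 and without busulfan 2 it was -1.23. Estimated coverage was 47 to 186 fragments.

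For its receptors the differences between the groups were nearer 0. Gfra1, which binds GDNF (chromosome 19, 58235604 to 58455909), was at 1.14 and 1.33 FPKM under busulfan alone versus 0.950 and 0.800 after Cus-1. The groups did not overlap, but the gap was small, with a log2 fold change of -0.25 (SE 0.24, limma adjusted p = 0.482). Only the busulfan values reached the 1 FPKM of the filter. The gene Gm16277 overlaps Gfra1 and was higher in both treated libraries, at 3.85 and 1.78 FPKM against 0.940 and 1.21. Whether reads were counted by strand is not given, so these loci may share reads. Ret, the signalling kinase of the complex (chromosome 6, 118151745 to 118197718), was at 1.19 and 1.99 FPKM under busulfan alone versus 1.29 and 1.44 after Cus-1. The Cus-1 values lay between the busulfan values, and the log2 fold change was -0.11 (SE 0.27, 95% interval -0.81 to 0.58), turning to 0.11 without busulfan 2.

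Of 2 factors downstream of GDNF, Etv5 was lower in both treated libraries and Bcl6b overlapped between the groups. Etv5, an ETS factor needed for stem cell renewal and also made by Sertoli cells (chromosome 16, 22381309 to 22439719), was at 29.9 and 21.37 FPKM under busulfan alone versus 17.7 and 21.36 after Cus-1. Busulfan 2 and Cus-1 2 were nearly equal, and busulfan 1 was the highest. The log2 fold change of -0.36 (SE 0.22, limma adjusted p = 0.305) was -0.60 when busulfan 2 was left out, and nearer 0 when busulfan 1 (-0.13) or Cus-1 1 (-0.23) was left out. Bcl6b, a repressor induced by GDNF (chromosome 11, 70224128 to 70229798), was at 1.74 and 1.27 FPKM under busulfan alone versus 1.68 and 1.54 after Cus-1. The groups overlapped, with a log2 fold change of 0.07 (SE 0.25, 95% interval -0.57 to 0.70) that turned to -0.09 with quantile normalization and to -0.07 without busulfan 2.

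Zbtb16 (chromosome 9, 48654297 to 48836222) encodes PLZF, a zinc finger repressor that keeps spermatogonia undifferentiated and that is also made by some mesenchymal and immune cells. It was at 6.84 and 8 FPKM under busulfan alone versus 2.38 and 3.66 after Cus-1. Both Cus-1 libraries were far below both busulfan libraries. The log2 fold change of -1.08 (SE 0.26, 95% interval -1.74 to -0.42) was the largest of the 10 genes, at a limma adjusted p of 0.152. Leaving out Cus-1 1 gave -0.85, and leaving out Cus-1 2 gave -1.31.

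Id4, an inhibitor of bHLH transcription factors that marks stem cell-rich spermatogonia (chromosome 13, 48261228 to 48266026), was at 8.19 FPKM in busulfan 1, 10.2 in busulfan 2, 11.2 in Cus-1 1 and 11.8 in Cus-1 2. Both Cus-1 libraries were above both busulfan libraries, by a small margin. The log2 fold change was 0.31 (SE 0.19, limma adjusted p = 0.314), with 0.17 without busulfan 1. The overlapping gene Gm49291 was at 0.820, 0.920, 4.81 and 0.670 FPKM in the same order, and the part of shared reads in the Id4 values was not tested. Id4 and Zbtb16, both held to mark undifferentiated spermatogonia, thus lay on opposite sides of 0. The part of other cell types in the values of either gene was not tested.

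Within the wider list of 26 genes of undifferentiated spermatogonia, which holds 6 of the 10, 15 were tested and 11 lay under the filter of 1 FPKM in at least 2 libraries. Of the 15, both Cus-1 libraries had lower levels for 8 and higher levels for 3, against 31.7% and 36.6% of all genes. Gfra1 and Piwil4, among the 8, passed the filter through the busulfan libraries only. The median log2 fold change of the 15 was -0.25. The most abundant were Sdc4, a syndecan, at 94.9 and 60.1 FPKM under busulfan alone versus 46.8 and 57.7 after Cus-1, and the tetraspanin gene Tspan8, at 50.1 and 39.0 against 26.5 and 34.4. Sall4 and Taf4b, higher in both treated libraries, and Lin28a, which overlapped, had log2 fold changes of 0.26, 0.09 and 0.21. These were chosen after their values were seen. The part of other cell types in the values of this list was not tested. Among the genes under the filter, chosen after their values were seen, Nanos2 was at 0 to 0.0900 FPKM and Eomes at 0.0400 to 0.0800 FPKM. At such levels no difference between the groups was detectable.

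Kit and its ligand were the most abundant of the 10 genes, and the groups were apart for the receptor only. Kit, the receptor tyrosine kinase of differentiating spermatogonia (chromosome 5, 75574916 to 75656722), was at 70.5 FPKM in busulfan 1, 60.7 in busulfan 2, 38.4 in Cus-1 1 and 38.7 in Cus-1 2. The Cus-1 libraries agreed closely with each other and both were lower. The log2 fold change was -0.75 (SE 0.15, 95% interval -1.14 to -0.36, limma adjusted p = 0.152), running from -0.86 to -0.64 when each library was left out in turn. Kitl, the ligand (chromosome 10, 100015630 to 100100416), was at 46.55 and 21.04 FPKM under busulfan alone versus 29.35 and 26.47 after Cus-1. Here the busulfan libraries lay on either side of both Cus-1 libraries. The log2 fold change of -0.17 (SE 0.38, limma adjusted p = 0.778) turned to 0.39 without busulfan 1 and was -0.72 without busulfan 2. Values per gene do not separate the membrane-bound from the soluble form of KIT ligand, or full-length KIT from the truncated form of spermatids.

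The upstream sequences of Kit and Id4 are shown because these genes lay on opposite sides of 0. They are from RefSeq's GRCm38.p6 promoters, which held 7 of the 10 genes. The windows run from 250 to 101 bases before the RefSeq start, and capitals mark each GC box, GGGCGG on either strand. The RefSeq start lies after the gene start given above for Kit and before it for Id4. Their windows therefore differ in distance from those gene starts.
Kit, chr5:75574737-75574886, + strand: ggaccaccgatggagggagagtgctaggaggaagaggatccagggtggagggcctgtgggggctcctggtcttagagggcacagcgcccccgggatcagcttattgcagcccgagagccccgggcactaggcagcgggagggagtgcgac
Id4, chr13:48260866-48261015, + strand: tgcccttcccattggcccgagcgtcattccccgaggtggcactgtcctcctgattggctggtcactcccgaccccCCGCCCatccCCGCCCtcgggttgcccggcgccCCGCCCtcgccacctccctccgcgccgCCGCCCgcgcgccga
The Kit window had 0 GC boxes and the Id4 window 4, and 16.7% of all 32807 such windows held at least 1. G and C made up 67.3% of the Kit and 76.0% of the Id4 window, against a median of 50.7%. The E-box CANNTG, the site of bHLH factors such as SOHLH1, was in neither window and in 49.3% of all windows. The ETS core CCGGAA was also in neither, and in 5.39% of all. A match is a description of letters and no evidence of binding.

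Kit lay on the other side of 0 from the median of the list in which it was placed. Of 15 genes of differentiating spermatogonia, both Cus-1 libraries were higher for 8 and lower for 2, against 36.6% and 31.7% of all genes. The median log2 fold change of the 15 was 0.57, and Kit and the cyclin gene Ccnd2 were the lower genes. The most abundant were Dmrtb1, a regulator of meiotic entry, at 131 and 221 FPKM under busulfan alone versus 304 and 286 after Cus-1, and Tex101, at 64.0 and 135 against 183 and 166. Dnmt3b, Lmo1 and Uchl1, chosen after their values were seen, overlapped between the groups, with log2 fold changes of 0.04, 0.01 and 0.06. The spermatocyte list had a median of 0.90, and the part of spermatocytes in the differentiating list was not tested. Sohlh1, a bHLH factor that acts on Kit, was chosen after its values were seen. It was at 3.11 and 2.85 against 4.97 and 4.52 FPKM. Set against the median of the other 14 genes of the list within each library, a measure chosen after the values were seen, Kit was 3.76 and 2.79 log2 units above it with busulfan and 1.75 and 2.14 above it after Cus-1. KIT is also made by Leydig cells and mast cells. Both Cus-1 libraries had lower levels for 8 and higher levels for 0 of the 12 Leydig cell genes, with a median log2 fold change of -0.49 and a summed level of 27260 to 27680 FPKM under busulfan alone versus 13520 to 19940 after Cus-1. Kit minus the Leydig median, chosen after the values were seen, was -2.25 and -2.80 log2 units with busulfan and -2.26 and -3.19 after Cus-1. These values overlapped between the groups. The mast cell protease genes Cpa3, Mcpt4, Cma1 and Tpsb2 were at 0 to 0.360 FPKM in all libraries. The 1 tested gene of the 7 on the mast cell list was Hdc, which encodes histidine decarboxylase, at 34.6 and 34.4 FPKM under busulfan alone versus 17.4 and 22.1 after Cus-1. The part of the Leydig cell genes in the Kit result was not tested.

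Over the 4 libraries, the genes of all lists whose centred log2 values were closest to those of Kit were Trf, Dhh and Aard, all from the Sertoli list, at Euclidean distances of 0.098, 0.127 and 0.150 among 186 genes compared. Trf, which encodes transferrin, was at 72.2, 57.7, 39.7 and 39.8 FPKM. For Gfra1 the closest were Tjp1, a tight junction scaffold, Ccnd2 and Hsd3b1, a Leydig steroid enzyme, at 0.138, 0.157 and 0.195. With 4 libraries such a ranking describes these values and nothing more.

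The other 8 tested genes of the KIT list stood on both sides of 0. Grb2, an adaptor, was at 63.1 and 49.1 FPKM under busulfan alone versus 29.7 and 35.1 after Cus-1 treatment (log2 difference -0.77, SE 0.19, limma adjusted p = 0.152). In the whole list 4 of 10 tested genes were lower in both treated libraries and 4 higher in both, near the 31.7% and 36.6% of all genes. Chosen after their values were seen, Sohlh2 and Cbl were on the higher side and Ptpn6 on the lower side. Sohlh2 was at 2.63 and 6.36 against 6.43 and 6.93 FPKM, and its log2 fold change of 0.57 was 0.06 without busulfan 1. Cbl, which encodes a ubiquitin ligase for active receptors, was at 24.6 and 28.9 against 50.6 and 33.6 FPKM. Ptpn6 was at 6.56 and 4.97 against 2.16 and 2.81 FPKM.

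Csf1 (chromosome 3, 107741048 to 107760469) was at 18.7 and 15.6 FPKM under busulfan alone versus 11.0 and 13.0 after Cus-1. Both Cus-1 libraries were lower, with a log2 fold change of -0.48 (SE 0.19, limma adjusted p = 0.183). Csf1r, its receptor, was at 39.9 and 26.9 FPKM under busulfan alone versus 19.2 and 27.7 after Cus-1, where Cus-1 2 was slightly above busulfan 2. Its log2 fold change of -0.49 (SE 0.28, limma adjusted p = 0.275) was -0.21 without busulfan 1 and -0.24 without Cus-1 1, and -0.77 without busulfan 2. Hmgxb3, annotated over Csf1r, was at 12.3 to 12.9 FPKM, and the part of shared reads in the Csf1r values was not tested. Tyrobp, an adaptor of myeloid cells, was at 42.9 and 35.4 against 18.4 and 30.9 FPKM. Of the 9 genes of the CSF1 list 7 were tested, with a median log2 fold change of -0.48. In both treated libraries 2 of them were lower and 0 higher, against 31.7% and 36.6% of all genes. Both Cus-1 libraries had lower levels for 13 and higher levels for 1 of 18 macrophage genes, with a median log2 fold change of -0.67 and a summed level of 901 and 1177 FPKM under busulfan alone versus 608 and 749 after Cus-1. The part of macrophage number in the CSF1 values was not tested.

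Fgf2 and Fgfr1 were lower in both treated libraries, a side that turned when scaled to Sertoli cell genes (0.13 and 0.23). Fgf2 was at 3.18 and 2.65 FPKM under busulfan alone versus 1.69 and 1.52 after Cus-1 treatment (log2 difference -0.59, SE 0.23, limma adjusted p = 0.182), and Fgfr1 at 12.9 and 9.58 against 6.95 and 8.41 (-0.49, SE 0.23, -0.29 without busulfan 1). Fgfr3 overlapped, at 2.24 and 2.19 against 3.05 and 1.87 FPKM. Genes annotated over Fgf2 include Nudt6, at 5.54 to 9.35 FPKM, and Gm42923, at 8.82 to 10.75 FPKM. The strand setting is not given, so Fgf2 may share reads with them. Gm16159, annotated over Fgfr1, was at 3.06 and 3.62 against 10.6 and 7.14 FPKM. The part of shared reads in the Fgfr1 values was not tested. Of the 7 tested FGF genes 6 were lower in both treated libraries, against 31.7% of all genes, with a median of -0.49. Among the 6 were Fgfrl1, at 32.2 and 26.4 against 22.0 and 22.4 FPKM, and Fgfr2, at 13.6 and 18.5 against 8.45 and 12.2.

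**Figure D2:**
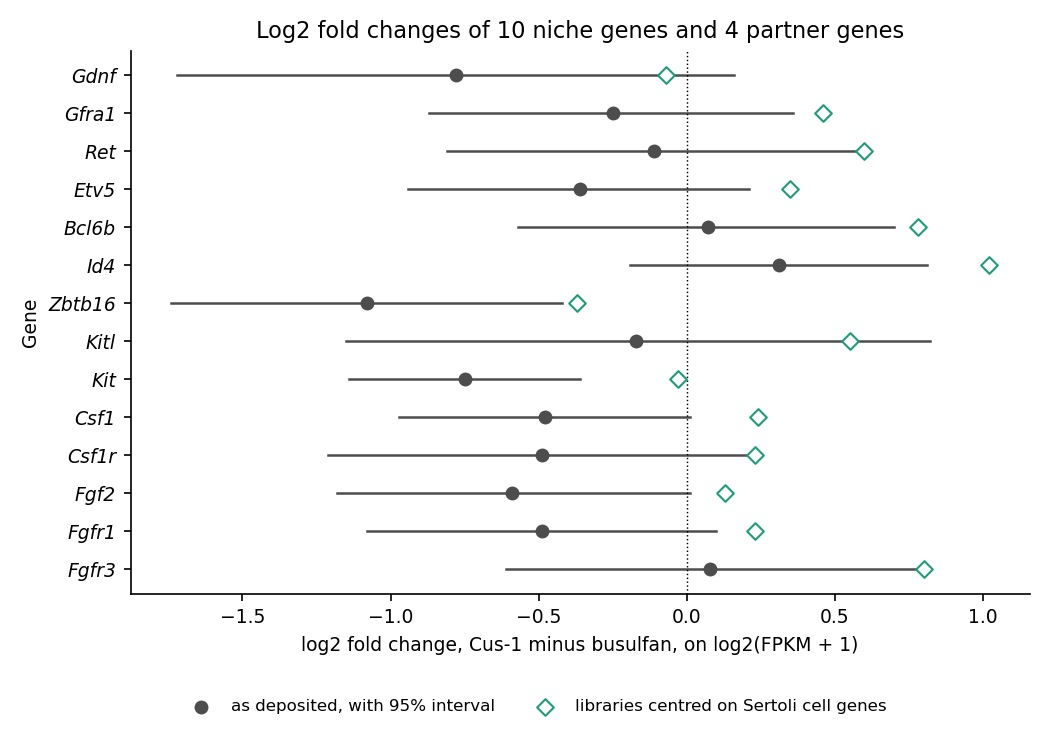
Log2 fold change (Cus-1 minus busulfan, log2(FPKM + 1)) of the 10 niche genes and 4 partners, grey with 95% intervals, and as open diamonds after each library was centred on its Sertoli cell genes. The intervals of Kit and Zbtb16 lie below 0, and centring moves all points to the right, Kit to -0.03 and Id4 to 1.02.

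Centring the libraries on the 22 Sertoli cell genes asks how the niche genes stood relative to Sertoli transcripts. It moved the median of all genes from 0.04 to 0.76, so values are to be read against that. Kit was then at -0.03 and Gdnf at -0.07, while Etv5 was at 0.35, Csf1 at 0.24, Gfra1 at 0.46, Ret at 0.60 and Kitl at 0.55, all below the median of all genes and, for these 5, on the other side of 0 than before. Id4 at 1.02 and Bcl6b at 0.78 were above it, and Zbtb16 at -0.37 was the lowest of the 10. Centring adds 1 constant to every log2 fold change, so the order of the genes and their side of the median of all genes are fixed by the values before it. Id4 then passed the threshold (limma adjusted p = 0.0465), as did 6002 genes in all.

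Ligand and receptor were then set against each other within each library, which on the log scale removes a scaling factor common to both, apart from the effect of the pseudocount. Kit stood above Kitl by 0.59 log2 units in busulfan 1, 1.48 in busulfan 2, 0.38 in Cus-1 1 and 0.53 in Cus-1 2. The Cus-1 libraries were the lower ones, by 0.58 on average, and busulfan 1 lay close to them. The difference was -1.03 without busulfan 1 and -0.14 without busulfan 2. For Gfra1 minus Gdnf the values were -1.25, -0.23, -0.24 and -0.19, and for Ret minus Gdnf -1.22, 0.13, -0.01 and 0.25, so busulfan 1 alone stood apart. Their mean differences of 0.53 and 0.67 were 0.02 and -0.01 without it. Csf1r minus Csf1 overlapped between the groups, with means of 0.90 ± 0.22 and 0.89 ± 0.21 (SD, n = 2). Fgfr1 minus Fgf2 also overlapped, at 1.63 ± 0.14 and 1.73 ± 0.24. Fgfr3 minus Fgf2 was higher in both treated libraries, at 0.59 and 0.19 against -0.37 and -0.19. The exact two-sided permutation p was 0.333, the smallest that 2 against 2 libraries allow, for Kit minus Kitl and Fgfr3 minus Fgf2, and 0.667 for the other 4 pairs. Adjusted over the 6 pairs by Benjamini-Hochberg, all 6 exact permutation p-values were 0.667.

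**Figure D3:**
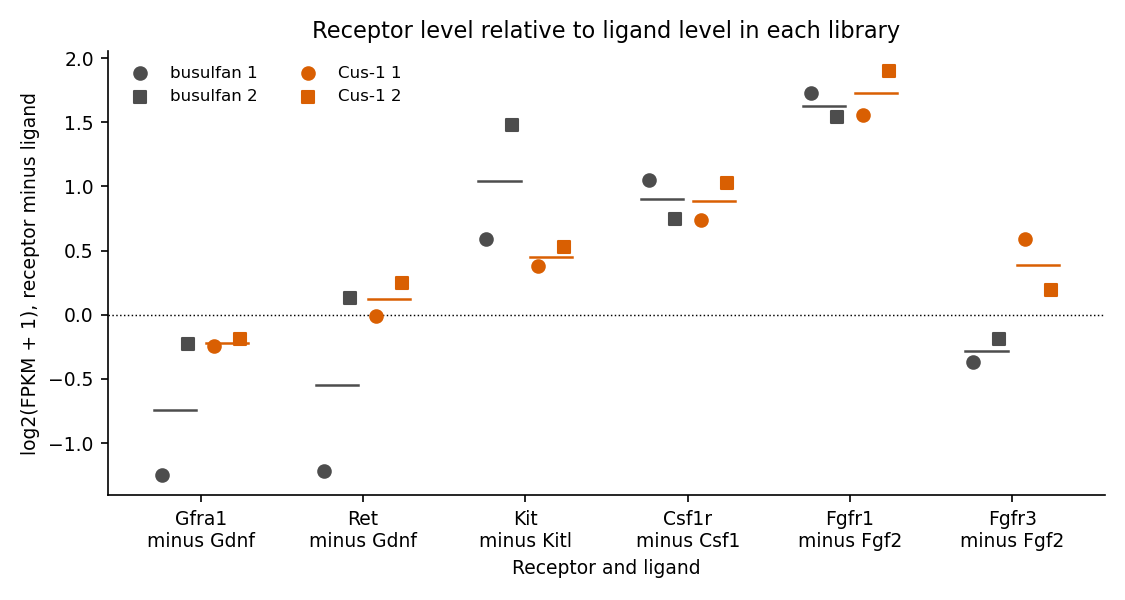
Receptor minus ligand on log2(FPKM + 1) for 6 pairs in each library, with group means as lines. Kit minus Kitl is lower and Fgfr3 minus Fgf2 higher in both treated libraries, and both GDNF pairs overlap, with busulfan 1 lowest.

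Of the 10 genes of the GDNF family list 8 were tested, 3 of them higher and 2 lower in both treated libraries, near the 36.6% and 31.7% of all genes. Of the 2 lower genes, Gfra1 passed the filter through the busulfan libraries only. The lower genes were Gdnf and Gfra1, and the higher genes were the alternative receptors Gfra2, at 1.88 and 3.35 FPKM under busulfan alone versus 6.02 and 4.44 after Cus-1, and Gfra4, at 7.84 and 11.7 against 18.0 and 13.8, and the adhesion receptor Ncam1, named after its values were seen. Their limma adjusted p-values were 0.174 for Gfra2, 0.181 for Gfra4 and 0.182 for Ncam1. In the list of 17 GDNF-responsive and feedback genes 12 were tested, 8 lower and 1 higher in both, with a median log2 fold change of -0.38. Egr2, among the 8, also passed the filter through the busulfan libraries only. Cxcr4, a chemokine receptor, was at 17.3 and 14.4 FPKM under busulfan alone versus 9.53 and 11.4. The ERK feedback genes Dusp6 and Spry2, chosen after their values were seen, were at 15.1 and 9.60 against 8.30 and 8.09 FPKM and at 5.61 and 3.22 against 3.10 and 2.98. Spry4, another such gene of the list, overlapped between the groups, at 3.37 and 1.64 against 1.54 and 1.78 FPKM, and busulfan 1 was the highest for all 3.

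**Figure D4:**
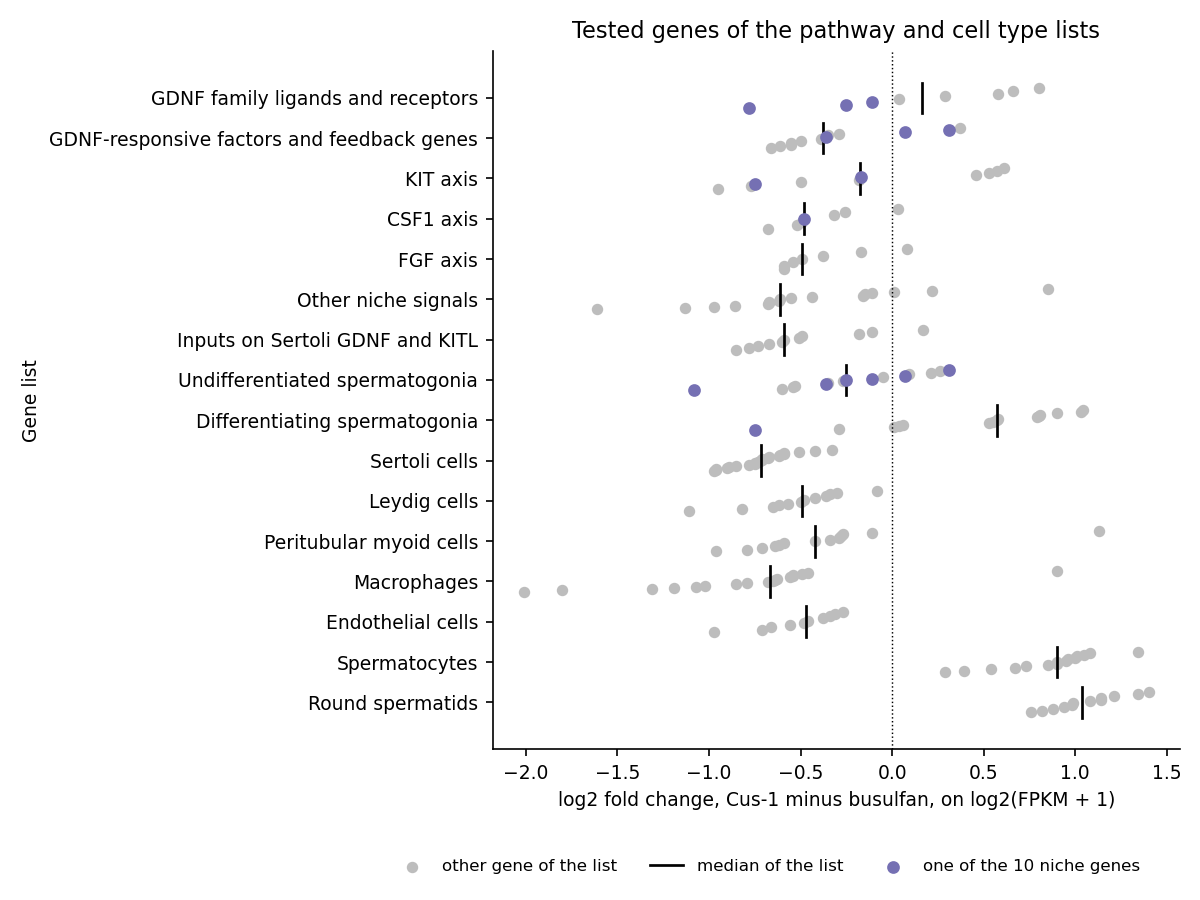
Log2 fold changes of the tested genes of each list, with the 10 niche genes in purple and list medians as black bars. Kit lies at -0.75 while the median of the differentiating spermatogonia list is 0.57, and the Sertoli list lies wholly below 0 in the values as deposited.

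Genes that act on Sertoli output of these ligands were mostly lower in the values as deposited. Of the 11 genes of that list 8 were lower in both treated libraries and 0 higher, against 31.7% and 36.6% of all genes. The median was -0.59. Its genes Fshr, Gata4, Sox9 and Wt1 are also among the 22 Sertoli genes, which had a median of -0.72. Wt1, a Sertoli cell transcription factor, was at 78.1 and 55.3 FPKM under busulfan alone versus 43.3 and 43.5 after Cus-1, and the TNF receptor gene Tnfrsf1a at 70.9 and 49.4 against 28.6 and 43.4. Fshr, the FSH receptor through which Gdnf and Kitl are induced, was chosen after its values were seen and was at 11.5 and 8.58 against 5.03 and 5.08 FPKM. Gdnf and Kitl were set against the median of the 22 Sertoli genes in each library, a measure also chosen after the values were seen. Gdnf was at -4.26 and -4.76 log2 units with busulfan and -4.57 and -4.79 after Cus-1. Kitl was at -1.04 and -1.76 against -0.86 and -1.04. The groups of Gdnf overlapped and those of Kitl met at -1.04. Peritubular myoid cells, the other named source of GDNF and CSF1, had lower levels for 7 and higher levels for 1 of 13 marker genes in both treated libraries, with a median log2 fold change of -0.42. Their most abundant markers were Igfbp7, at 387 and 271 FPKM versus 190 and 226, and the myosin light chain gene Myl9, at 288 and 188 versus 146 and 232. Endothelial markers were lower in both for 8 of 10 genes, with a median of -0.47, while 14 of 15 spermatocyte and 12 of 12 round spermatid markers were higher in both, with medians of 0.90 and 1.03.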

How the data were processed

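The authors deposited 1 table of FPKM values per gene and library, printed to 2 decimals. Genome build mm10 is named in the submitters' processing notes. For the aligner, the counter, the annotation and the strand setting, the sources used here give no statement. Columns were matched to samples by library name. Of 45536 rows with values, 910 without a gene name (0.641% to 0.688% of the summed FPKM) were left out, and of symbols on several rows the row with the highest mean was used. The filter kept genes that reached 1 FPKM in 2 or more libraries, 19837 in all, with limma 3.58.1 in R 4.3.3 on log2(FPKM + 1) with a mean-variance trend and Benjamini-Hochberg adjustment. This scale understates changes of rare genes. The limma fit and the depth estimate were checked on simulated data. Summed FPKM was 726041 to 742689 per library. Depth was estimated from the spacing of FPKM times length over 7997 genes with 1 annotated transcript. Positions are from GENCODE M21 of the same build.

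The 10 genes, the lists and the motifs were chosen with earlier results of these data known. The rule for named genes took the 10, their 4 partners, the 2 most abundant tested genes of each list and the 3 nearest genes to Kit and to Gfra1, and some cell type lists are given by their summary alone. Other genes were named after their values were seen. The comparisons of a gene with the median of a list were also chosen in that way, and not all of them are printed. Alternatives were other pseudocounts, filters and scalings, a fit without trend, and leaving out each library.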

Additional observations from a re-analysis of the deposited data

How the results depend on the processing

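The 10 genes kept their direction under both other pseudocounts (0.5 and 0.1), without a low-value filter, after centring on the median and without a trend. With a filter of 5 FPKM the 4 rarest of them, Fgf2 and Fgfr3 gave no value, nor did the 4 pairs that hold them. Quantile normalization turned Bcl6b to -0.09 and Fgfr3 to -0.07. Centring on Sertoli genes gave 6002 genes and 1 of the 10 past the threshold, with both Cus-1 libraries higher for 6 of the 10 and lower for 0, against 79.8% and 1.5% of all genes. It turned Gfra1 to 0.46, Ret to 0.60, Etv5 to 0.35, Kitl to 0.55, Csf1 to 0.24, Csf1r to 0.23, Fgf2 to 0.13 and Fgfr1 to 0.23, and the construction of that setting moves all genes together. Centring on undifferentiated spermatogonia without the 10 genes turned Ret to 0.08 and Kitl to 0.03. Both Cus-1 libraries were then higher for 2 of the 10 and lower for 4, against 47.5% and 19.4% of all genes. With a pseudocount of 0.1, Fgfr3 minus Fgf2 was 0.92. The causes of these were not tested.

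When each library was left out in turn, 0 to 7 genes in all and 0 of the 10 were past the threshold, the 7 without Cus-1 1. Between 6 and 8 of the 10 were lower and between 1 and 3 higher, against 37.7% to 41.2% and 42.2% to 46.6% of all genes, with 1 library set against 2. Some directions turned, with ranges of -0.72 to 0.39 for Kitl, -0.34 to 0.11 for Ret, -0.07 to 0.20 for Bcl6b and -0.16 to 0.33 for Fgfr3. The ranges of receptor minus ligand were 0.02 to 1.04 for Gfra1, -0.01 to 1.34 for Ret, -1.03 to -0.14 for Kit, -0.17 to 0.14 for Csf1r, -0.07 to 0.27 for Fgfr1 and 0.47 to 0.87 for Fgfr3. No paired analysis was possible because the labels give the libraries no shared number. Depth limits the genes near 1 FPKM.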

Other observations

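Further niche signals, beyond the GDNF, KIT, CSF1 and FGF pathways, lay mostly on the lower side after Cus-1. Of 18 genes 17 were tested, with a median log2 fold change of -0.61 in the values as deposited and 0 past the limma adjusted threshold. In both treated libraries 11 were lower and 0 higher, against 31.7% and 36.6% of all genes. Lif, among the 11, passed the filter through the busulfan libraries only, so its lower side is not independent of the filter. Centring on Sertoli genes adds the same constant to these as to all genes, whose median it moved from 0.04 to 0.76. The chemokine gene Cxcl12, whose product binds CXCR4 on spermatogonia, was at 78.3 and 87.6 FPKM under busulfan alone versus 40.4 and 65.1 after Cus-1. Wnt6 overlapped between the groups, at 67.0 and 55.3 against 49.2 and 59.9 FPKM.

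Chosen after their values were seen, Lifr, its ligand gene Lif and Igf1 were lower in both treated libraries. Lifr, the receptor of leukaemia inhibitory factor, was at 56.5 FPKM in busulfan 1, 23.1 in busulfan 2, 11.7 in Cus-1 1 and 10.7 in Cus-1 2, a log2 fold change of -1.61 (SE 0.43, limma adjusted p = 0.152) that was -0.98 without busulfan 1 and -2.24 without busulfan 2. Lif was at 1.04 and 1.18 FPKM under busulfan alone versus 0.260 and 0.510 after Cus-1, where it lay under the 1 FPKM of the filter. The growth factor gene Igf1 was at 11.6 and 13.6 FPKM under busulfan alone versus 6.69 and 6.31 after Cus-1 treatment (log2 difference -0.86, SE 0.19, limma adjusted p = 0.152), and the libraries of each group lay close together.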
